A study of Rattus norvegicus with 9 samples.

Results

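Interleukins are secreted signals that pass mainly between white blood cells, and their receptors set which cells can answer. All probe sets whose annotation gave exactly 1 gene symbol beginning with Il and a digit were taken as members, Il34 excepted, so names and no measured value chose them. This gave 64 genes among the 14557 named, on 65 of the 36685 probe sets of the array, and Il13ra2 was the 1 gene with more than 1 probe set. By role, 33 probe sets measured ligands, 29 measured receptors or receptor-like proteins and 3 measured secreted inhibitors. A further 11 expected genes, among them Il1r1, Il1rap, Il2rg, Il6st and Il15ra, had no probe set under this rule and were not analysed here.

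RNA was profiled in 3 samples of BMDM, macrophages grown from Dark Agouti marrow in CSF1 over 7 days, and in livers of newborn Sprague Dawley rats injected daily for 5 days and killed on day 6, 4 of them with CSF1-Fc and 2 with PBS. CSF1-Fc is porcine CSF1, the growth factor that macrophages need to live and divide, joined to an antibody Fc region, and it was given at 1 µg/g. All 6 pups were born to dams that had received PBS in pregnancy. The liver samples are whole tissue, in which hepatocytes, macrophages, endothelial cells and blood-forming cells contribute RNA together. BMDM differ from the livers in strain, age and culture as well as in cell type, and these cannot be told apart. Whether the BMDM came from separate animals is not given in the sources used here, so their spread may be technical.

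The families work in different ways. IL-1 beta and IL-18 are made as inactive precursors that caspase-1 cuts after an inflammasome has formed, and each has a natural inhibitor, namely the IL-1 receptor antagonist encoded by Il1rn and the IL-18 binding protein encoded by Il18bp. IL-6, IL-10, IL-22 and the common gamma chain cytokines signal through JAK kinases and STAT factors, and in liver IL-6 is best known for driving hepatocytes to make acute phase proteins. Kupffer cells, the resident macrophages of liver, are a known source of IL-1, IL-6, IL-10 and IL-18.

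Values are log2 expression after robust multiarray averaging (RMA), and array medians lay between 3.75 and 3.87. Relative to its own array's median, 17 members were above on all 9 arrays, 18 on some and 30 on none. The same value to the last digit stood on at least 3 arrays for 20 members (30.8%, against 18.2% of all probe sets), 15 of which were never above the median, so such probe sets hold little information on differences. PBS liver 2 stood somewhat apart (correlation 0.951 to 0.962 with the other livers, which correlated at 0.971 to 0.985 among themselves), and pairs of BMDM correlated at 0.926 to 0.961. Hepatocyte markers averaged 3.86 to 4.26 in BMDM, 11.85 to 12.14 in CSF1-Fc livers and 11.92 to 12.17 in PBS livers. All 11 measured pan-macrophage markers had a BMDM mean above the array median, C1qb narrowly at 4.13.

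Of the 65 members 3 were higher in CSF1-Fc livers than in PBS livers, namely Il18, Il7r and Il17rd, and 0 were lower. By limma with adjustment over all probe sets, 4.62% of members were higher at an adjusted p under 0.05, where 1.22% of all probe sets were, and 0 were lower, where 0.254% of all probe sets were. Before adjustment 11 members were higher and 5 lower at p under 0.05, where 2681 and 2349 of the 36685 probe sets were. The count of 3 became 2 without PBS liver 1, 1 without PBS liver 2 and 0 without any 1 CSF1-Fc liver. The median log2 fold change of the members was -0.08, close to the -0.03 of all probe sets. Among the 17 members above the array median everywhere it was 0.47, with 2 passing, and among the other 48 it was -0.12, with 1 passing. The matching values for equally bright probe sets of the whole array are not given here, so this split is not read as a trait of the members.

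Il18 encodes the precursor of IL-18, a cytokine that brings T cells and natural killer cells to make interferon gamma. Its log2 expression was 8.84, 8.97, 9.10 and 8.79 in CSF1-Fc livers 1 to 4, against 7.01 and 6.66 in PBS livers 1 and 2. Every CSF1-Fc liver was thus more than 1 log2 unit above both PBS livers. The log2 fold change was 2.09 (95% interval 1.70 to 2.48), a 4.26-fold rise (adjusted p = 0.0128), and it was the largest among the members. With any 1 of the CSF1-Fc livers left out, no probe set of the array passed, and the adjusted p of Il18 was 0.0544, 0.0703, 0.0614 and 0.072 without CSF1-Fc livers 1, 2, 3 and 4. In whole tissue, fewer or more cells of a type and less or more RNA per cell cannot be told apart.

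Il7r encodes the IL-7 receptor alpha chain, which lymphocytes and their precursors need. It measured 7.66, 7.49, 7.35 and 7.82 in CSF1-Fc livers, against 6.50 and 6.14 in PBS livers, again without overlap. The log2 fold change was 1.26 (0.81 to 1.71, adjusted p = 0.0389). This call was lost without PBS liver 2 (adjusted p = 0.107) and without any 1 CSF1-Fc liver (0.0997 to 0.131). Of 12 measured T cell and innate lymphoid cell markers only Cd4, which rat macrophages also carry, passed, with 10.97 as its mean in CSF1-Fc livers and 8.74 in PBS livers. The T cell receptor complex genes Cd3d, Cd3e and Cd3g had log2 fold changes of -0.19, 0.57 and 0.12, and none passed. At unadjusted p under 0.05, 4 of the 12 markers were higher and 0 lower. Of 4 measured B cell markers 2 rose, Cd22 by 2.16 (adjusted p = 0.0127) and Blnk by 1.10 (adjusted p = 0.0145). Ms4a1 (0.08) and Pax5 (-0.11) did not pass, and Blnk had a mean of 7.04 in BMDM and 6.14 in CSF1-Fc livers. Of 8 measured NK cell markers 1 rose, Klrk1 by 1.86 (adjusted p = 0.0174), or by 1.69 without PBS liver 2, where the call was lost. The NK cell list had a median of -0.01 and a range of -0.62 to 1.86. The part of these lymphocyte markers in the rise of Il7r was not tested.

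Il17rd, a member of the IL-17 receptor family also known as an inhibitor of fibroblast growth factor signalling, measured 4.15, 4.32, 4.55 and 4.09 in CSF1-Fc livers, against 2.91 and 3.24 in PBS livers. All 4 CSF1-Fc livers were above the array median and both PBS livers below it. The log2 fold change was 1.20 (0.75 to 1.65, adjusted p = 0.043). The call did not hold without any 1 liver, PBS or CSF1-Fc (adjusted p from 0.0597 without PBS liver 1 to 0.152 without CSF1-Fc liver 2), nor with all 9 arrays in the fit (0.0635) or a trended and robust prior (0.0551).

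The proximal promoters of Il18 and Il7r, the rises that also passed with all 9 arrays in the fit and with a trended and robust prior, are printed with that of Il1rn, the member that differed most between BMDM and either liver group. Each is the stretch of 250 bases before the annotated start in RefSeq on the rat build GRCr8, read on the gene's own strand, and 49 of the 64 genes had an entry. Il18 lies on the plus strand at chr8:59801822-59802071, Il7r on the minus strand at chr2:60204918-60205167 and Il1rn on the plus strand at chr3:27520072-27520321. Capitals mark motif matches.
Il18: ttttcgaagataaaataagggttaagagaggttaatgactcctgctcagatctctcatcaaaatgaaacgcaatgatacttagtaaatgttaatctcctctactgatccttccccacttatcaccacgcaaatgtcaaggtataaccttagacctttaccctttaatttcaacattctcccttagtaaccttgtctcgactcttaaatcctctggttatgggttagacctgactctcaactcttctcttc
Il7r: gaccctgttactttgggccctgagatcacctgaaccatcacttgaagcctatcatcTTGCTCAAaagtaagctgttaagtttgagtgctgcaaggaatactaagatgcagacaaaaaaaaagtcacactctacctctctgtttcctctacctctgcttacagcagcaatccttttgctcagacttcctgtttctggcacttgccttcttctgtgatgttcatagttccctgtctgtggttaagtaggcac
Il1rn: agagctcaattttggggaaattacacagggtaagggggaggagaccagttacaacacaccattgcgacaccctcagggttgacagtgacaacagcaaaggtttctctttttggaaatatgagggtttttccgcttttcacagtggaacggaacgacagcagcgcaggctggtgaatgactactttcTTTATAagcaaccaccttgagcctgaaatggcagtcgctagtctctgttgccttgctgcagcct

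Both strands were searched for 6 motifs. The C/EBP form TTGCNNAA matched Il7r once, 194 to 187 bases before the start, and is present in 9.22% of 33469 promoters of this length. The TATA box letters TATAAA matched Il1rn once, on the opposite strand 64 to 59 bases before the start, and are present in 12.9% of promoters. The letters GAGGAAG for PU.1 (10.2% of promoters), TGANTCA for AP-1 (6.34%), TTCNNNGAA for STAT factors (7.67%) and the NF-kappaB consensus (3.54%) were not in these 3 windows, and Il18 had no match of any kind. These are matches of letters only.

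Other IL-1 family members in the livers did not pass. Il1b, which encodes the inflammatory cytokine IL-1 beta, measured 7.04, 7.39, 6.52 and 6.58 in CSF1-Fc livers, against 4.83 and 5.85 in PBS livers. The groups did not overlap, yet PBS liver 2 lay 1.02 above PBS liver 1, and the log2 fold change of 1.54 had an adjusted p of 0.132. The inhibitor Il18bp measured 8.23, 8.55, 8.01 and 8.17 in CSF1-Fc livers, against 6.68 and 7.71 in PBS livers, with a log2 fold change of 1.05 (adjusted p = 0.203). The other inhibitor, Il1rn, overlapped between the groups, with 7.87, 7.44, 6.61 and 7.91 in CSF1-Fc livers, against 6.84 and 7.55 in PBS livers (log2 fold change 0.26, adjusted p = 0.827). Il1a, the gene for IL-1 alpha, measured 8.05, 8.16, 8.10 and 7.58 in CSF1-Fc livers, against 8.05 and 8.20 in PBS livers (log2 fold change -0.15, 95% interval -0.63 to 0.32). Il33, the gene for an alarm signal released by damaged cells, had a log2 fold change of -0.48 (adjusted p = 0.464) and Il36b of -0.09 (adjusted p = 0.88). The 5 receptor probe sets of the family, which include the decoy receptor gene Il1r2 and the IL-18 receptor chain gene Il18rap, lay between -0.14 and 0.14.

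**Figure D1:**
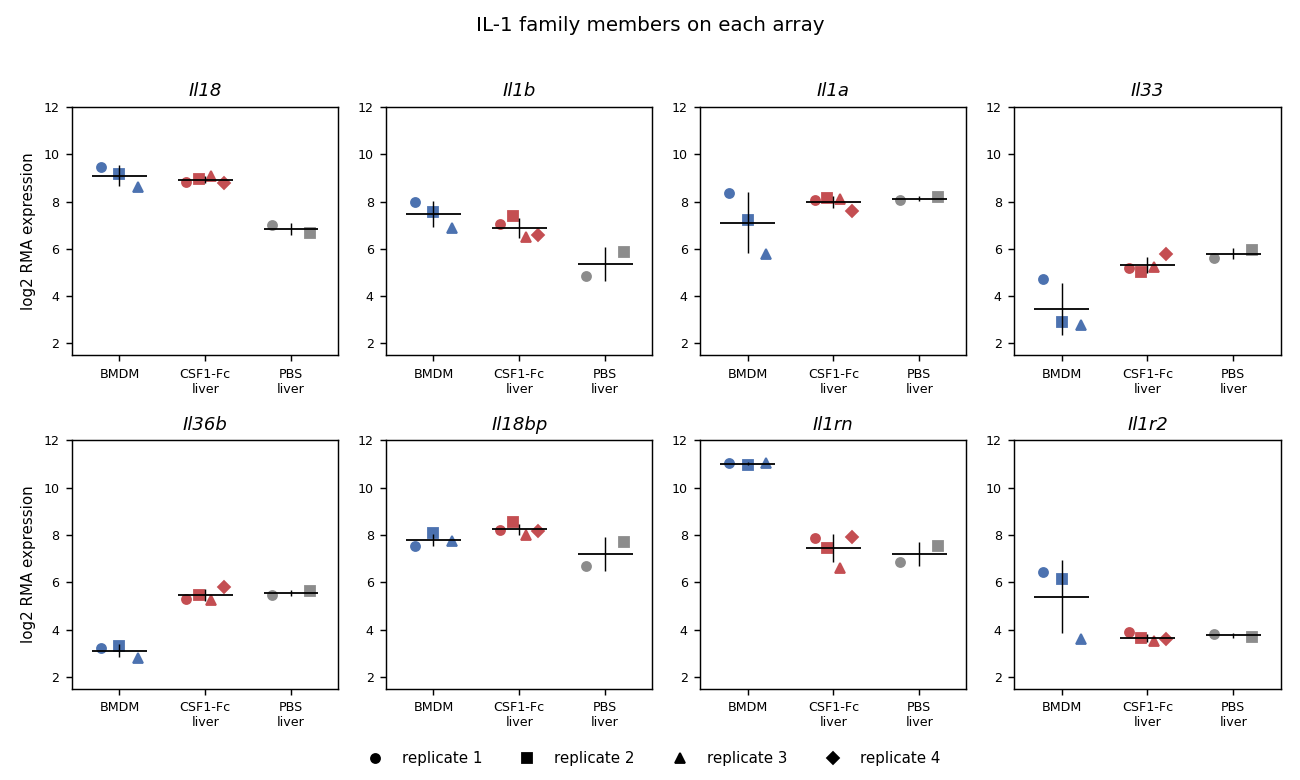
Log2 RMA expression (vertical axis) of 8 IL-1 family members on each of the 9 arrays, in BMDM (blue, left), CSF1-Fc livers (red, middle) and PBS livers (grey, right), with the mean as a line, the SD as a bar and marker shapes for replicate numbers. Il18 separates the CSF1-Fc livers (8.79 to 9.10) from the PBS livers (7.01 and 6.66), and Il1rn separates BMDM (10.97 to 11.06) from all livers.

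In the IL-10 family, Il10, whose product restrains macrophage activation, measured 7.65, 7.12, 6.71 and 7.35 in CSF1-Fc livers, against 5.04 and 6.71 in PBS livers. PBS liver 2 matched the lowest CSF1-Fc liver to 2 decimals, and the log2 fold change of 1.33 had a wide interval (0.15 to 2.52, adjusted p = 0.303). Without PBS liver 2 it was 2.17 (adjusted p = 0.0898) and without PBS liver 1 it was 0.50 (adjusted p = 0.465). The receptor chains did not pass, though their arrays did not overlap between the groups. The share of all probe sets without overlap is not given here, so this is not read as a trait of the members. Il10ra, the ligand-binding chain, measured 5.69, 5.94, 5.85 and 6.66 in CSF1-Fc livers, against 4.89 and 5.49 in PBS livers (log2 fold change 0.85, adjusted p = 0.312). Il10rb, a chain shared by several cytokines of the family, measured 8.49, 8.79, 8.48 and 8.48 in CSF1-Fc livers, against 8.0 and 8.17 in PBS livers (log2 fold change 0.47, adjusted p = 0.236). Il22ra1, the IL-22 receptor chain of epithelial cells and hepatocytes, had a log2 fold change of -0.49 (adjusted p = 0.492).

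The IL-17 receptor gene Il17ra, the chain common to most receptors of its family, measured 7.46, 7.85, 8.24 and 8.10 in CSF1-Fc livers, against 7.14 and 6.97 in PBS livers (log2 fold change 0.86, 95% interval 0.29 to 1.43, adjusted p = 0.18). Here too the arrays did not overlap, with the same limit as for the IL-10 receptor chains. Il17b, a ligand gene of the family, measured 3.65, 3.79, 3.57 and 3.79 in CSF1-Fc livers, against 4.15 and 4.43 in PBS livers. It was thus lower in every CSF1-Fc liver, with a log2 fold change of -0.59 and an adjusted p of 0.134.

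The receptor genes by which hepatocytes and macrophages respond to IL-6 and IL-4 differed little. Il6r measured 8.95, 8.79, 8.73 and 9.13 in CSF1-Fc livers, against 9.04 and 8.66 in PBS livers (log2 fold change 0.05, 95% interval -0.38 to 0.49). Il4r measured 9.03, 8.84, 8.71 and 8.83 in CSF1-Fc livers, against 8.92 and 8.37 in PBS livers (0.21, interval -0.25 to 0.67). For both, the intervals leave out a change of 1 log2 unit in either direction. Il6 itself was below the array median in every liver, at 2.15 to 2.49 in CSF1-Fc livers and 2.41 and 2.49 in PBS livers. Il21r, the IL-21 receptor gene, measured 5.14, 5.23, 4.93 and 4.84 in CSF1-Fc livers, against 4.63 and 4.14 in PBS livers (0.66, adjusted p = 0.21).

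The lowest log2 fold changes belonged to probe sets near or below the array median. Il9r, the IL-9 receptor gene, stood at -0.75 (adjusted p = 0.461), with 2.32, 2.05, 2.25 and 2.47 in CSF1-Fc livers, against 2.32 and 3.73 in PBS livers. The difference rested on PBS liver 2, and without PBS liver 1 it became -1.45 (adjusted p = 0.0312). Il12a, which encodes the p35 subunit shared by IL-12 and IL-35, stood at -0.70 (adjusted p = 0.33). It measured 3.96, 4.19, 3.90 and 3.34 in CSF1-Fc livers, against 4.30 and 4.79 in PBS livers. PBS liver 2 lay at least 1 log2 unit from PBS liver 1 for 5 of the 65 members, where 12.5% of all probe sets had such a gap. It lay above PBS liver 1 for all 5, namely Il10, Il9r, 1 probe set of Il13ra2, Il18bp and Il1b. The direction over all probe sets is not given here.

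**Figure D2:**
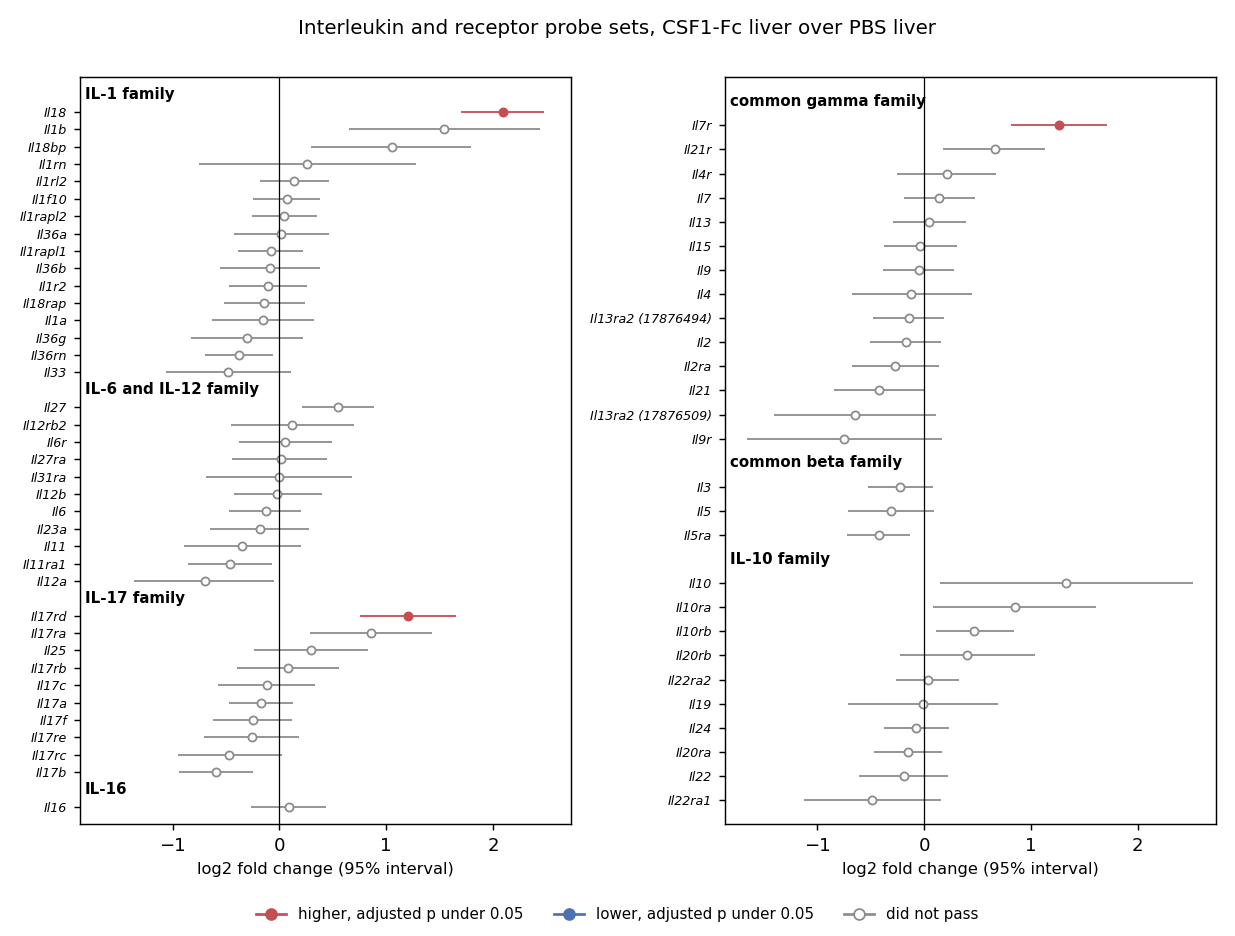
Log2 fold change of each of the 65 probe sets in CSF1-Fc livers over PBS livers (horizontal axis) with its 95% limma interval, grouped by family and ordered by size within each. Il18 (2.09), Il7r (1.26) and Il17rd (1.20), filled in red, passed, and the open grey points did not.

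Cytokines made mainly by T cells and other lymphocytes were not detectable above the middle of the arrays. The 10 genes Il2, Il3, Il4, Il5, Il9, Il13, Il17a, Il17f, Il21 and Il22 ranged from 1.30 to 3.45 on the 9 arrays, and 0 of them exceeded the array median anywhere. None passed in any of the 3 comparisons. An array value this low sets no bound on the amount of transcript.

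Genes on either side of these receptors were counted from lists drawn from general knowledge. Of 19 measured JAK, STAT and SOCS genes, 2 rose and 0 fell with CSF1-Fc (median log2 fold change 0.36). At unadjusted p under 0.05, 5 were higher and 0 lower. Those that passed were Jak2, a kinase used by many cytokine receptors, with a mean log2 difference of 1.14 (adjusted p = 0.0168), and Ptpn6, a phosphatase that dampens them, with 1.16 (adjusted p = 0.0165). Of 16 measured genes of IL-1 signalling and processing, 2 rose and 0 fell (median 0.37). Nlrp3, the sensor of an inflammasome that matures IL-1 beta and IL-18, measured 6.78, 6.79, 7.23 and 6.83 in CSF1-Fc livers, against 4.30 and 5.12 in PBS livers (2.20, adjusted p = 0.0225). Nlrc4, a second inflammasome gene, measured 6.74, 7.02, 6.59 and 6.56 in CSF1-Fc livers, against 5.08 and 4.27 in PBS livers (2.05, adjusted p = 0.0267, and 0.0609 without PBS liver 2). Of 12 gp130 family and shared-chain genes outside the Il symbols, 1 rose and 0 fell, with 3 higher and 1 lower at unadjusted p under 0.05. The gene that passed was Csf2rb, the beta chain that the receptors for IL-3, IL-5 and GM-CSF share (2.19, adjusted p = 0.0128).

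Target genes gave no calls by limma in the livers. Of 17 measured acute phase genes that IL-6 and IL-1 act on in hepatocytes, 0 rose and 0 fell (median -0.06, range -1.09 to 0.21), and 0 were higher and 4 lower at unadjusted p under 0.05. Of 15 measured IL-4 and IL-13 target genes 0 rose and 0 fell (median -0.16, range -0.41 to 0.99), with 2 higher and 1 lower at unadjusted p under 0.05.

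Most measured macrophage markers were higher in CSF1-Fc livers. Of 11 measured pan-macrophage markers 8 rose and 0 fell (median log2 fold change 1.82), with an average level of 10.08 to 10.25 in CSF1-Fc livers, against 8.22 to 8.61 in PBS livers. Of 6 measured Kupffer cell markers 5 rose and 0 fell, with 9.68 to 10.02 in CSF1-Fc livers, against 8.08 to 8.27 in PBS livers. The 7 hepatocyte and 11 neutrophil markers gave no calls, with 1 hepatocyte and 6 neutrophil markers lower and 1 neutrophil marker higher at unadjusted p under 0.05, and the neutrophil list had a median of -0.97. Of 8 stellate cell and fibroblast markers 2 fell, Lum with a log2 fold change of -2.17 (adjusted p = 0.0128) and Dcn with -1.35 (adjusted p = 0.0317, but 0.0513 without PBS liver 1 and 0.0814 without PBS liver 2). Of 5 eosinophil markers Siglec5 rose by 1.67 (adjusted p = 0.0128), but the list had a median of -0.42. Its granule genes Prg2 (-1.63) and Epx (-1.75) went the other way without passing, and 1 marker was higher and 3 lower at unadjusted p under 0.05. Tfrc, 1 of 7 erythroid markers, rose by 1.76 (adjusted p = 0.0317), or by 1.48 without PBS liver 2, where the call was lost. The 7 endothelial, 4 cholangiocyte and 9 mast cell and basophil markers gave no calls, and at unadjusted p under 0.05 only the endothelial list held any, 1 higher and 3 lower. Among the pan-macrophage calls, that of Adgre1 was lost without PBS liver 2 (log2 fold change 2.09), and leaving out PBS liver 1 or 2 ended no other. With any 1 CSF1-Fc liver left out, no marker or pathway gene kept its call, as no probe set of the array passed. The part of these markers in the rise of Il18, Il7r and Il17rd was not tested.

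BMDM were then set against the CSF1-Fc livers, to see which of these genes cultured macrophages share with a macrophage-rich liver. In BMDM 6 members were higher and 12 lower (9.23% and 18.5% of members, where 19.9% of all probe sets were higher and 17.5% lower). The median of the members was 0.12 and that of all probe sets 0.14. After quantile normalization the medians were -0.04 and 0.02, and 3 members instead of 6 were higher. Against PBS livers 6 members were higher and 7 lower in BMDM (9.23% and 10.8%, where 10.2% and 10.4% of all probe sets were). The BMDM arrays are the same in both comparisons. In both, 3 members were higher and 7 lower. The matching counts for all probe sets are not given here, so these are not read as a trait of the members.

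The largest member difference was Il1rn, the IL-1 receptor antagonist gene. It measured 11.04, 10.97 and 11.06 in BMDM, against 6.61 to 7.91 in CSF1-Fc livers and 6.84 to 7.55 in PBS livers. The BMDM values lay within 0.1 of each other and far above every liver. The difference was 3.57 (95% interval 2.83 to 4.30, 11.8-fold, adjusted p = 8.05e-05) over CSF1-Fc livers and 3.83 (14.2-fold, adjusted p = 0.00075) over PBS livers, and it passed with each array left out.

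Il7r was graded across the groups, with 8.68, 8.88 and 8.42 in BMDM, above 7.35 to 7.82 in CSF1-Fc livers, themselves above the PBS livers. BMDM exceeded CSF1-Fc livers by 1.08 (adjusted p = 0.00207) and PBS livers by 2.34 (adjusted p = 0.00302), again with each array left out. Its ligand gene Il7, a growth factor for lymphocyte precursors, measured 5.91, 5.62 and 4.60 in BMDM, against 3.69 to 3.95 in CSF1-Fc livers (1.55, adjusted p = 0.00464) and 3.57 to 3.79 in PBS livers (1.70, adjusted p = 0.0418). The call against PBS livers was lost without PBS liver 1 or 2 or BMDM 1 or 2 (adjusted p 0.11 to 0.218).

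Il18 was at 9.48, 9.18 and 8.60 in BMDM, overlapping the CSF1-Fc livers (difference 0.16, 95% interval -0.36 to 0.68) and above the PBS livers (2.26, adjusted p = 0.00707, though 0.0502 and 0.0692 without PBS liver 1 and 2). Il1b followed the same order, at 8.0, 7.55 and 6.88 in BMDM. It differed from CSF1-Fc livers by 0.59 (adjusted p = 0.183) and from PBS livers by 2.14 (adjusted p = 0.0237, but 0.0578 to 0.155 without either PBS liver or without BMDM 1 or 2). Il10ra measured 6.35, 6.75 and 6.32 in BMDM and differed from PBS livers by 1.29 (adjusted p = 0.0338, but 0.0565 to 0.169 without any 1 array) and from CSF1-Fc livers by 0.44 (adjusted p = 0.213). Without CSF1-Fc liver 4 the difference of Il10ra between BMDM and CSF1-Fc livers was 0.65 and passed (adjusted p = 0.0407). For Il18 and Il1b, no difference between BMDM and CSF1-Fc livers passed. The 95% interval of Il1b (-0.15 to 1.34) leaves room for a level more than 1 log2 unit higher in BMDM.

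Il10 was the member lowest in BMDM relative to CSF1-Fc livers. It measured 4.23, 4.25 and 4.14 in BMDM, against 6.71 to 7.65 in CSF1-Fc livers, a difference of -3.0 (8.02-fold lower, adjusted p = 3.32e-05). Against PBS livers the difference was -1.67 (adjusted p = 0.0678), and -2.51 (adjusted p = 0.0203) without PBS liver 1. Il36b, the gene for the IL-1 family cytokine IL-36 beta, measured 3.20, 3.30 and 2.79 in BMDM, against 5.25 to 5.82 in CSF1-Fc livers and 5.47 to 5.63 in PBS livers. It was 5.15-fold lower in BMDM than in CSF1-Fc livers (adjusted p = 6.65e-05) and 5.48-fold lower than in PBS livers (adjusted p = 0.00251). Il33 measured 4.71, 2.90 and 2.76 in BMDM, against 5.03 to 5.79 in CSF1-Fc livers (-1.86, adjusted p = 0.0167, but 0.0593 and 0.0535 without BMDM 2 and 3) and 5.62 to 5.96 in PBS livers (-2.33, adjusted p = 0.0483, but 0.118 to 0.255 without either PBS liver or without BMDM 2 or 3).

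Receptors made up 7 of the 12 members that were lower in BMDM than in CSF1-Fc livers. These were 24.1% of the 29 receptor probe sets, where 15.2% of the 33 ligand probe sets and 17.5% of all probe sets were lower. Whether receptors were lower more often than other members was not tested. Il6r, the IL-6 receptor alpha chain, measured 6.78, 6.69 and 6.72 in BMDM and was lower than in CSF1-Fc livers (-2.17, adjusted p = 1.92e-05) and PBS livers (-2.12, adjusted p = 0.00308). Il4r, the alpha chain for IL-4 and IL-13, measured 6.84, 7.21 and 7.54 in BMDM and differed by -1.66 (adjusted p = 0.000322) from CSF1-Fc livers and by -1.45 (adjusted p = 0.0282) from PBS livers. Both stood above the median of the array in BMDM. The call on Il4r against PBS livers was lost without PBS liver 1 or 2 or BMDM 1 or 2 (adjusted p 0.076 to 0.163).

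**Figure D3:**
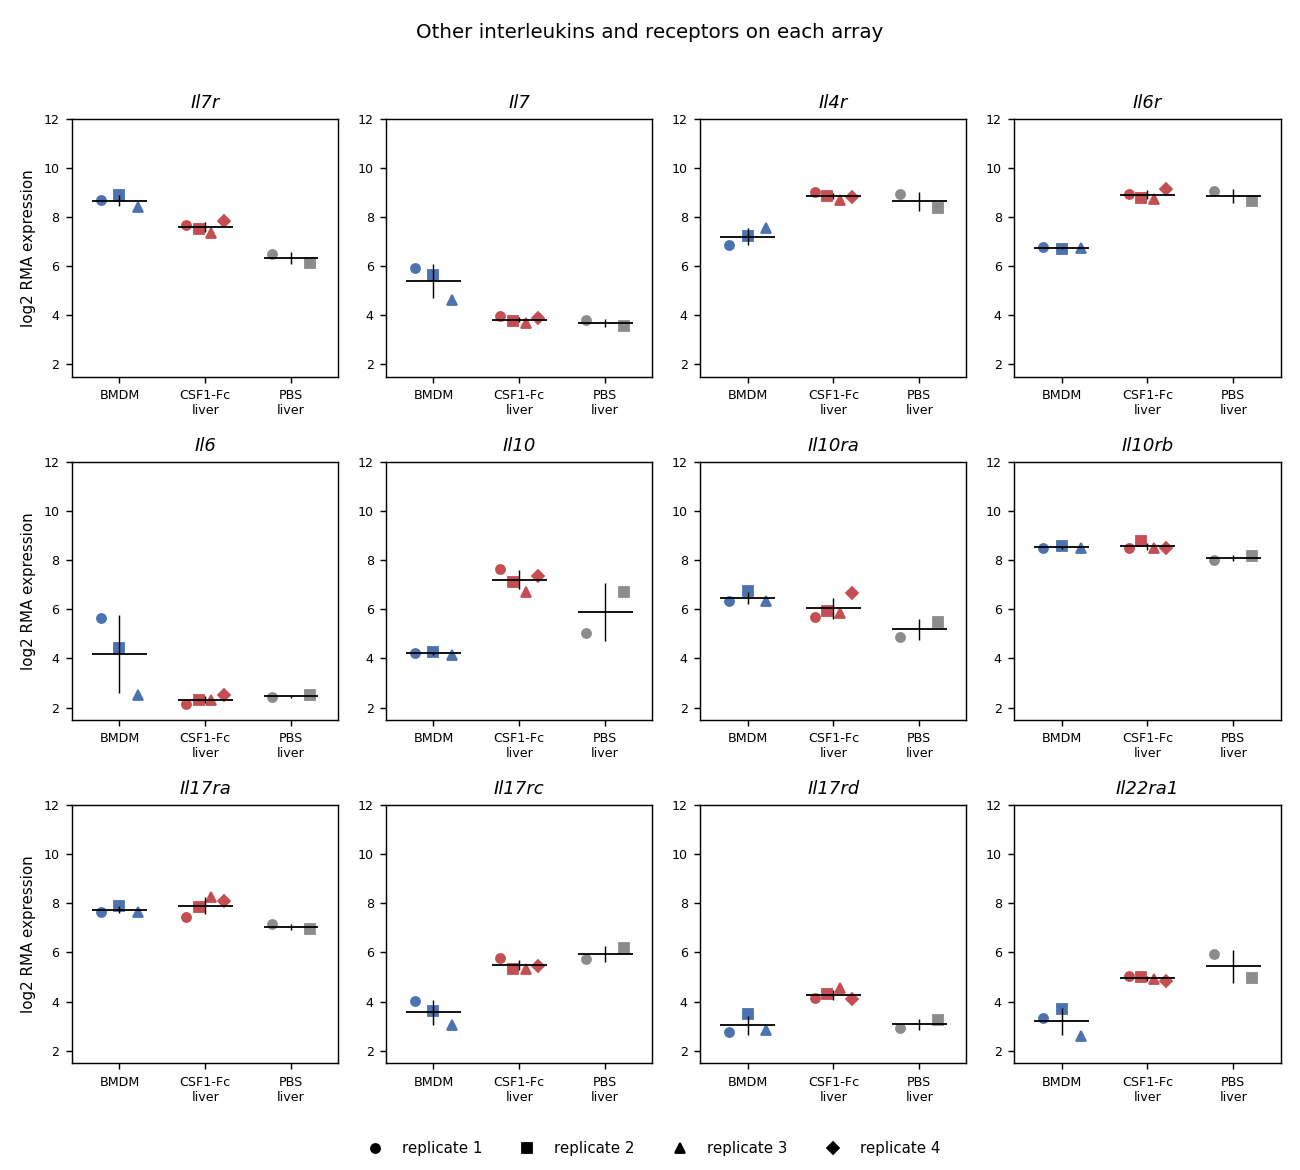
Log2 RMA expression (vertical axis) of 12 further members on each array, in BMDM (blue, left), CSF1-Fc livers (red, middle) and PBS livers (grey, right), with the mean as a line, the SD as a bar and marker shapes for replicate numbers. Il7r steps down from BMDM to CSF1-Fc livers to PBS livers, Il6r is at 6.69 to 6.78 in BMDM and at 8.66 to 9.13 in the livers, and Il6 ranges from 2.49 to 5.63 among BMDM.

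Among receptors of epithelial and connective tissue, Il22ra1 measured 3.32, 3.69 and 2.60 in BMDM, against 4.83 to 5.06 in CSF1-Fc livers (-1.75, adjusted p = 0.00105). Il17rc, the partner of Il17ra in the IL-17A receptor, measured 4.03, 3.60 and 3.04 in BMDM, against 5.34 to 5.79 in CSF1-Fc livers (-1.93, adjusted p = 0.000584). Il17rd, Il17rb, the receptor gene for IL-25, and Il11ra1, the IL-11 receptor gene, were lower too, with differences of -1.24, -1.35 and -0.94 (adjusted p = 0.00291, 0.0132 and 0.00357). Of the 5 IL-17 receptor genes 3 were thus lower in BMDM, while Il17ra, at 7.66, 7.90 and 7.65, had a difference of -0.18 (adjusted p = 0.533). The ligand genes Il16 (-0.73, adjusted p = 0.00996) and Il27 (-0.65, adjusted p = 0.0119) complete the 12. Against PBS livers Il22ra1 (-2.23), Il17rc (-2.40) and Il11ra1 (-1.40) passed as well (adjusted p = 0.0187, 0.00729 and 0.0236). Leaving out 1 array ended each of these, Il22ra1 without PBS liver 1 or 2 or BMDM 1 (adjusted p 0.0544 to 0.132), Il17rc without PBS liver 2 (0.0724) and Il11ra1 without the same arrays as Il22ra1 (0.074 to 0.14).

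Markers of other liver cells differed in the same direction. In BMDM all 7 hepatocyte, all 7 endothelial, all 8 stellate cell and fibroblast and all 6 Kupffer cell markers measured were lower than in CSF1-Fc livers, with medians of -8.73, -3.81, -3.15 and -4.79. Their part in the lower levels of Il10, Il6r, Il22ra1 and the other members was not tested. Of the 17 acute phase genes 16 were lower in BMDM, and of the 19 JAK, STAT and SOCS genes 2 were higher and 7 lower. Pan-macrophage markers went both ways, with 3 of 11 higher and 4 lower in BMDM than in CSF1-Fc livers (range -7.04 to 4.16).

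Some members varied widely among the BMDM themselves, though the median range of the members was 0.46, against 0.67 for all probe sets. The range over the 3 BMDM was 1 log2 unit or more for 10 of the 65 members, where 29.4% of all probe sets had such a range. BMDM 1 was highest for 8 of these 10 and BMDM 3 lowest for 7, and the matching shares of all probe sets are not given here. Il6 measured 5.63 in BMDM 1, 4.41 in BMDM 2 and 2.49 in BMDM 3, the last within the range of the livers. It differed from CSF1-Fc livers by 1.86 (adjusted p = 0.0537), or by 2.70 (adjusted p = 0.000951) without BMDM 3. Il1r2, whose product captures IL-1 without signalling, measured 6.44, 6.13 and 3.60 in BMDM, against 3.50 to 3.88 in CSF1-Fc livers (1.74, adjusted p = 0.0643, or 2.63 and 5.84e-05 without BMDM 3). Il1a measured 8.35, 7.21 and 5.77 in BMDM, against 7.58 to 8.16 in CSF1-Fc livers (-0.86, adjusted p = 0.245, or -1.49 and 0.0309 without BMDM 1).

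The remaining 3 members that were higher in BMDM than in CSF1-Fc livers were dim. Il1f10, the gene for IL-38, Il36rn, the IL-36 receptor antagonist gene, and Il11, a gp130 cytokine gene, differed by 0.62, 0.42 and 0.54 (adjusted p = 0.0369, 0.039 and 0.04) and were at or below the array median on every array. Each lost its call in most fits with 1 array left out (adjusted p 0.0542 to 0.106). After quantile normalization the adjusted p was 0.216 for Il1f10, 0.0525 for Il36rn and 0.196 for Il11.

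**Figure D4:**
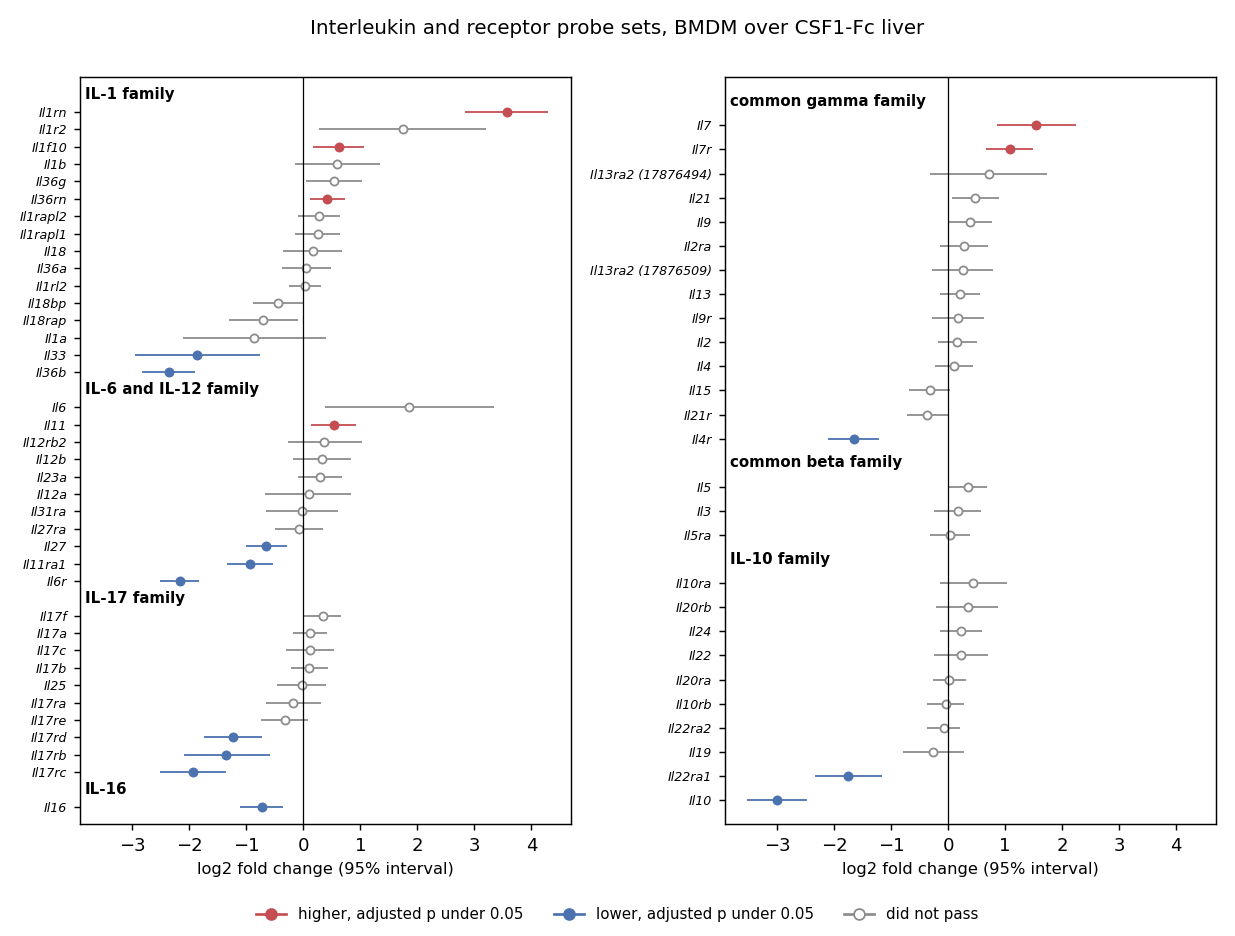
Log2 fold change of each of the 65 probe sets in BMDM over CSF1-Fc livers (horizontal axis) with its 95% limma interval, by family, with members that passed filled in red (higher, 6) or blue (lower, 12) and the others open. Il1rn (3.57) and Il10 (-3.0) lie at the ends.

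The members that did not pass in any comparison were mostly flat. Il15, the gene for a growth factor of natural killer cells that many cell types make, measured 5.29, 5.39 and 5.00 in BMDM, 5.50, 5.74, 5.42 and 5.53 in CSF1-Fc livers and 5.66 and 5.50 in PBS livers, with a log2 fold change of -0.04 (95% interval -0.38 to 0.31) between the livers. Il18rap measured 4.01, 3.89 and 4.89 in BMDM, against 4.83 to 5.24 in CSF1-Fc livers (-0.71, adjusted p = 0.0691, or -1.02 and 0.00275 without BMDM 3). Il12b and Il23a, which encode subunits of IL-12 and IL-23, and Il27ra, the IL-27 receptor gene, had log2 fold changes of -0.02, -0.18 and 0.01 between the livers and did not pass against BMDM.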

How the data were processed

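RNA from 3 BMDM samples, 4 CSF1-Fc livers and 2 PBS livers was measured on the Affymetrix Rat Gene 2.1 ST array. For the livers the authors extracted RNA with TRIzol and RNeasy columns, and they summarized the arrays by RMA in R with the Transcription Analysis Console after quality control in Expression Console. The deposited values are log2 expression, used as given. Whether all 9 arrays were normalized together is not given in the sources used here. Genes were named from the platform annotation (829 probe sets carried several symbols and 21032 none), and the symbol and Entrez identifier of all 65 members matched RefSeq.

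Groups were compared with limma 3.58.1 (lmFit, eBayes) in R 4.3.3 on the compared arrays alone, over 36685 probe sets, with Benjamini-Hochberg adjustment and a threshold of 0.05. Residual and prior degrees of freedom were 4 and 2.23 (CSF1-Fc against PBS livers), 5 and 2.56 (BMDM against CSF1-Fc livers) and 3 and 3 (BMDM against PBS livers). The number of arrays limits the precision, above all the 2 PBS livers. With 1 array of a group left, that array was taken to vary like the others. Scripts were tested on simulated data. Python 3.11.15, pandas 2.3.3, numpy 2.4.6 and matplotlib 3.10.9 were used for tables and plots.

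Members and gene lists were chosen with earlier results of these data known. Full values are given for 38 probe sets, namely those that passed between the livers, the 5 highest and 5 lowest there, up to 8 in each direction of BMDM against CSF1-Fc livers, and a list of 40 genes, 29 of which had a member. Others are named as examples. Alternatives were all 9 arrays in 1 fit, a filter on dim probe sets, probe sets with 1 symbol, a trended and robust prior, quantile normalization, centring on the array median, a block for the replicate number, and fits with 1 array left out in turn.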

Additional observations from a re-analysis of the deposited data

Results flagged for a closer look

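Within the 4 CSF1-Fc livers, 38 probe sets were searched for an array far from the rest (a gap above Dixon's 95% critical share of the range), and chance flags about 1 in 20 groups. Il10rb in CSF1-Fc liver 2 was 8.79, where the other 3 were 8.48 to 8.49 (a gap of 0.967 of the range). Il11ra1 in CSF1-Fc liver 2 was 5.31, where the other 3 shared the value 5.11 (a gap of 1, the whole range). Both gaps were small, and for both genes one value recurred on 3 or more of the 9 arrays.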

How the results depend on the processing

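No called member among those with full values changed direction under any alternative. Between the livers, the count of members higher, 3, became 0 with a replicate block (6 at unadjusted p under 0.05, lowest adjusted p 0.543) and ranged from 0 to 2 with 1 array left out (8 to 11 unadjusted), and the count lower, 0 (5 unadjusted), ranged from 0 to 1. In BMDM against CSF1-Fc livers, the 6 higher became 3 after quantile normalization and 3 with the replicate block, and ranged from 3 to 6 with 1 array left out. In BMDM against PBS livers, the 6 higher ranged from 2 to 7 and the 7 lower from 2 to 8 with 1 array left out. Il1rn and Il7r were higher and Il36b and Il6r lower than in either liver group with each array left out. Same-numbered arrays deviated together little or not at all (correlations -0.12 to 0.18). Deviations of the 2 PBS livers from their mean mirror each other, so a weak pairing by number could not be seen. For the 38 probe sets with full values, 212 of 228, 240 of 266 and 155 of 190 fits with 1 array left out kept the side of the threshold (CSF1-Fc against PBS livers, BMDM against CSF1-Fc livers and BMDM against PBS livers), as did 249 of 254, 237 of 253 and 238 of 253 fits under the other alternatives.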

Other observations

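The probe sets of Il13ra2, a decoy receptor for IL-13, did not move together. One measured 3.40, 1.51 and 1.55 in BMDM, against 1.29 to 1.58 in CSF1-Fc livers and 1.55 and 1.63 in PBS livers, so only BMDM 1 was high. The other measured 2.54, 2.42, 2.63 and 2.13 in CSF1-Fc livers, against 2.54 and 3.61 in PBS livers, so only PBS liver 2 was high. Neither passed in any comparison.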
